A study of Mus musculus with 2 samples.

Results

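The 31 genes described here carry glucose into the cell, break it down or report its supply: 3 glucose transporters, 14 genes of glycolysis, 5 of lactate and pyruvate conversion, 2 glucose-responsive arrestin genes, 3 of the polyol and hexosamine routes and 4 of the pentose phosphate pathway. They were taken by name and not by a cut on their values, but with earlier results of these data known. All 31 were found among the 19357 genes of the aortic single-cell libraries. The mice were male, on a C57BL/6 background, and both groups carried the Apoe -/- deletion, which raises plasma cholesterol and leads to atherosclerosis, so there was no group with a working Apoe gene. Diabetic mice had received streptozotocin, a toxin of insulin-producing beta cells, at 55 mg/kg per day for 5 days from 6 weeks of age, and controls had received citrate vehicle. After 10 weeks of follow-up, at a labelled age of 17 weeks, the aortae of 4 mice per group were digested for 1 hour at 37 °C, pooled, incubated for a further 30 minutes at 37 °C in serum-containing medium, and sorted for live, calcein-positive cells. Each group is therefore 1 library of 4 pooled animals, blood glucose is not in the sources used here, and RNA was taken after this time in culture medium.

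Glucose enters cells through carriers of the Slc2a family and is trapped by hexokinase as glucose 6-phosphate, which can run down glycolysis to pyruvate and lactate or branch into the pentose phosphate pathway, which supplies NADPH and ribose. Excess glucose can also be reduced to sorbitol by aldose reductase or enter the hexosamine pathway, both long studied in diabetic vessels. A rise in glucose phosphates activates the transcription factors MondoA and ChREBP, and Txnip, whose protein restrains glucose uptake, is their best known target.

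The authors assigned 3060 control and 2524 diabetic cells to 13 classes, and the 7 classes with at least 50 cells in each library were compared: 2 of vascular smooth muscle cells (VSMCs-2 and VSMCs-1), 3 of fibroblasts (Fib-1, Fib-2 and Fib-3), endothelial cells (ECs) and macrophages (Mac). These cells held 12390769 and 11833577 unique molecular identifiers (UMIs, each 1 captured transcript), with medians of 3760 and 4477.5 per cell, and the 31 genes held 53040 and 56721 of them. Each class carried its own defining markers, but not those alone. Cells with at least 1 UMI of 5 T cell markers made up 110 of 510 control and 81 of 229 diabetic cells of the Mac class, and 37 and 34 cells there had over 0.5% of their UMIs in 4 neutrophil markers. Summed macrophage markers in Mac were 34803 CPM in control cells and 21818 CPM in diabetic cells. Haemoglobin made up 0.217% of classed UMIs in control and 1.14% in diabetic cells, and 15 barcodes occurred in both libraries, 8 of them classed in both.

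Levels are given as CPM, the UMIs of a gene scaled to a common total of UMIs for the class, and ratios are diabetic over control. There is no replicate check and no p-value with 1 library per group. The 95% intervals describe the counting of molecules alone, not the spread between mice. Below, "called" means a ratio of at least 1.5-fold in either direction, with an interval that excluded 1, for a gene with at least 30 UMIs over both libraries in the class.

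Across the 7 classes, 172 of 217 combinations of gene and class reached 30 UMIs, and 11 were called: 7 higher and 4 lower in the diabetic library. The 7 higher values belonged to Slc2a4 in VSMCs-2, Slc2a1 and Hk2 in Fib-2, Txnip in Fib-1, and Txnip, Ldhb and Gfpt1 in Mac. The 4 lower values, of Eno1, Akr1b3, Pgd and Taldo1, were all in Fib-3. The other 21 genes were called in no class, and no gene was called higher in one class and lower in another. In VSMCs-2, 1 of 28 genes was called higher, beside 4.77% of all 9729 genes that reached 30 UMIs there, and 0 lower, beside 3.9%. In Fib-1 it was 1 of 19 higher, beside 3.45% of all genes, and 0 lower, beside 5.26%. Fib-2 had 2 of 28 higher, beside 5.43%, and 0 lower, beside 3.62%. Mac had 3 of 27 higher, beside 8.79%, and 0 lower, beside 5.66%. VSMCs-1 had 0 of 21 called, beside 3.23% higher and 4.82% lower, and ECs 0 of 26, beside 4.18% and 4.02%. The shares in these 6 classes were close to the background and are no result about the list. In Fib-3, 4 of 23 were called lower, where 6.58% of all genes were, and 0 higher, where 4.15% were.

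The median log2 ratio of the listed genes was -0.30 in Fib-3, where the median of all genes was -0.08. It was -0.12 in ECs beside -0.03, -0.14 in Fib-1 beside -0.08, -0.03 in VSMCs-2 beside 0.02, -0.03 in Fib-2 beside 0.03, 0.04 in VSMCs-1 beside -0.02, and 0.12 in Mac beside 0.06. Summed over the 31 genes, Fib-3 held 3888 CPM in control cells and 3243 CPM in diabetic cells, a ratio of 0.834 (95% interval 0.780 to 0.891). ECs held 4238 and 3847 CPM (ratio 0.908, 0.868 to 0.95), and VSMCs-2, with the largest number of cells in the diabetic library, held 5526 and 5579 CPM (ratio 1.01, 0.990 to 1.03). Fib-3 thus had the lowest summed ratio of the 7 classes, while the sum in VSMCs-2 was the same within its interval.

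**Figure D1:**
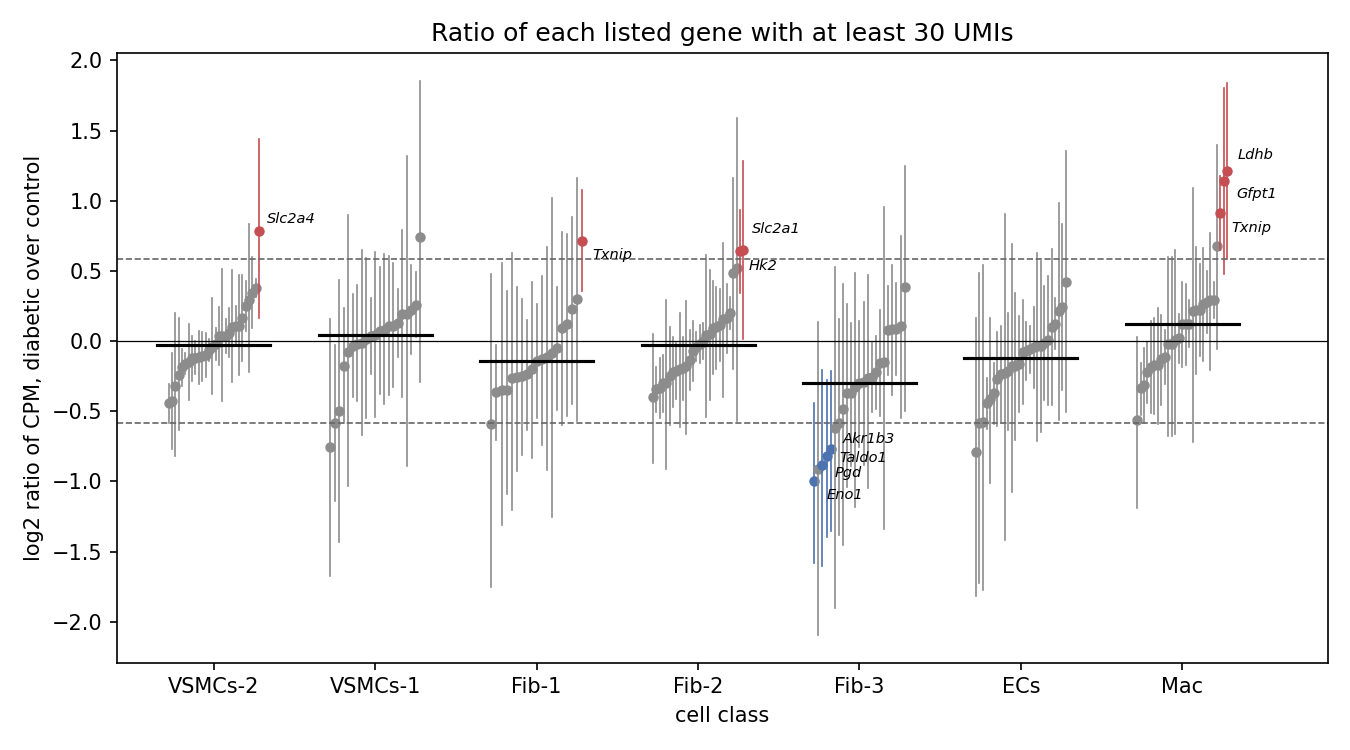
Log2 ratio of CPM, diabetic over control, with its 95% counting interval for each of the 31 genes that reached 30 UMIs in each of the 7 classes (horizontal axis); genes are sorted within a class, black bars are class medians, dashed lines mark 1.5-fold, red points are called higher and blue points lower. The 4 blue points all lie in Fib-3, and 3 of the 7 red points lie in Mac.

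When all classed cells were pooled, 2 of 31 genes were called higher, beside 8.95% of all genes, and 0 lower, beside 10.1%. Slc2a4 was 2.99 CPM in control cells and 9.21 CPM in diabetic cells (ratio 3.08, 2.11 to 4.61), and Pfkm, the muscle phosphofructokinase, was 16.6 and 25.4 CPM (ratio 1.53, 1.28 to 1.84). The pooled cells held 496 VSMCs-2 cells of 3060 in control and 856 of 2524 in the diabetic library. With the 7 classes weighted equally neither gene kept its call, and the median log2 ratio of the list went from 0.075 to -0.083. The cell make-up of the libraries moves with these pooled values, so the results below are given within classes.

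Glucose transporters were sparse and split by cell class. Slc2a1 (GLUT1, the basal carrier of most cells; chr4:119108745-119137330 in GRCm38) was 34.8 CPM in control cells and 37.6 CPM in diabetic VSMCs-2, a ratio of 1.08 (0.845 to 1.39). In Fib-2 it was 12.7 CPM in control cells and 19.9 CPM in diabetic cells, which was called higher by a narrow margin (1.57, 1.01 to 2.44) and was no longer called under 5 of 8 alternative scalings and cell filters. Mac held 16.1 and 25.7 CPM (1.60, 0.961 to 2.63), ECs 19.2 and 25.8 CPM (1.34, 0.703 to 2.56), and Fib-3 47.4 and 25.2 CPM (0.531, 0.234 to 1.10). None of these 3 intervals excluded 1. Without the 5% deepest cells, however, Slc2a1 passed the rule in Mac (1.87) and, in the lower direction, in Fib-3 (0.440), and in Mac it did so on scaling without mitochondrial, ribosomal protein and haemoglobin genes (1.71). VSMCs-1 held 24.7 and 16.0 CPM and Fib-1 5.75 and 6.02 CPM, all under 30 UMIs. The range between classes within a library, from 5.75 CPM in Fib-1 to 47.4 CPM in Fib-3 for control cells, was wider than any difference between the libraries. In Fib-2, where Slc2a1 was called, the summed smooth muscle markers were also 1038 CPM in control cells and 1559 CPM in diabetic cells. Without cells over 0.5% of UMIs in markers of another type, Slc2a1 was no longer called there. That filter took out 36 of 907 control and 36 of 533 diabetic cells, 31 and 30 of them for smooth muscle markers. The part of these markers in the result was not tested further.

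Slc2a4 (GLUT4, the insulin-responsive carrier of muscle and fat; chr11:69942286-69948216) was found mainly in smooth muscle. VSMCs-2 held 28 UMIs in control (10.1 CPM) and 99 UMIs in diabetic cells (17.3 CPM), and Slc2a4 was called higher there (1.72, 1.12 to 2.72). UMIs were found in 27 of 496 control cells (5.44%) and in 88 of 856 diabetic cells (10.3%). After every cell was thinned to 1000 UMIs the shares were 1.41% and 2.34%, close to the level of single UMIs, and the ratio of 1.66 was no longer called. VSMCs-1 held 5 and 8 UMIs (15.4 and 18.3 CPM), and Fib-2 4 and 2 UMIs. Fib-1, Fib-3, ECs and Mac had 0 UMIs in both libraries, as did all 6 smaller classes. With 0 of 510 control Mac cells holding a UMI, a count of 0 allows up to 1.15 CPM there by the 3-count limit, or 1.41 CPM by the exact Poisson bound. In VSMCs-2 macrophage markers were 162 and 36.2 CPM, fibroblast markers 1173 and 559 CPM, and erythroid markers 116 and 11578 CPM. Adipocyte markers were 1.08 and 17.1 CPM (3 and 98 UMIs), and skeletal or cardiac muscle markers 34.5 and 61.7 CPM. Both were higher in the diabetic library, as Slc2a4 was, and their part in its call was not tested separately. The smooth muscle markers themselves were 56718 and 55561 CPM, and without cells over 1% haemoglobin Slc2a4 kept its call.

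Slc2a3 (GLUT3, a high-affinity carrier; chr6:122727809-122802363) stayed under 30 UMIs in every class. Among the 7 compared classes its highest values were 4.97 CPM in control cells and 5.31 CPM in diabetic Mac cells. A difference in this carrier was not detectable at this depth.

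At the first steps of glycolysis ECs differed from the other compared classes in the balance of isozyme transcripts. Hk2 had more UMIs than Hk1, and Pfkp more than Pfkl, in all 6 others and in neither EC library. The hexokinase order in VSMCs-1 rested on few counts: 13 Hk2 and 6 Hk1 UMIs in control, 20 and 12 in diabetic cells. Hk2, the inducible hexokinase that binds mitochondria (chr6:82725025-82774454), was highest in Fib-3, at 322 CPM in control cells and 340 CPM in diabetic cells, with intervals (282 to 366 and 285 to 402) above those of every other compared class. Fib-1 followed with 90.1 and 105 CPM, then Mac with 88.7 and 104 CPM, and these neighbours were not separated by their intervals. At the other end stood ECs, with 0 Hk2 UMIs in 366 control cells and 3 UMIs in 228 diabetic cells. In both libraries the Hk1 and Hk2 UMIs of ECs were mainly those of Hk1, the constitutive isozyme (chr10:62268855-62379920), at 56.7 and 60.9 CPM. Of all Hk1 and Hk2 UMIs, Hk2 thus made up 0% (0 to 5.78) and 5.45% (1.14 to 15.1) in ECs and 91.3% (87.1 to 94.5) and 92.5% (86.9 to 96.2) in Fib-3. Cells with an Hk2 UMI were 61.5% of control and 56.7% of diabetic Fib-3 cells, or 15.4% and 26.9% after thinning to 1000 UMIs, beside 0% and 1.36% in ECs after thinning.

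Hk2 was called higher in the diabetic library in Fib-2 and in no other class, at 55.6 CPM (48.2 to 63.8) in control and 86.5 CPM (74.4 to 100) in diabetic cells, a ratio of 1.56 (1.27 to 1.91). Its ratio was 1.27 (1.06 to 1.51) in VSMCs-2, 1.17 (0.927 to 1.46) in Mac, 1.17 (0.733 to 1.85) in Fib-1, 1.14 (0.541 to 2.50) in VSMCs-1 and 1.06 (0.848 to 1.31) in Fib-3. All 6 values were above 1, but whether Fib-2 differed from the other classes was not tested. In Fib-2 fibroblast markers were 36556 and 27880 CPM, smooth muscle markers 1038 and 1559 CPM, macrophage markers 265 and 55.3 CPM and erythroid markers 139 and 7993 CPM. Without cells high in markers of another type the Hk2 ratio was 1.73. Hk1 had ratios between 0.904 and 1.07 in the 5 classes where it reached 30 UMIs, and the Hk2 share of hexokinase UMIs in Fib-2 was 65.2% (59.6 to 70.5) in control and 73.8% (67.9 to 79.2) in diabetic cells.

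**Figure D2:**
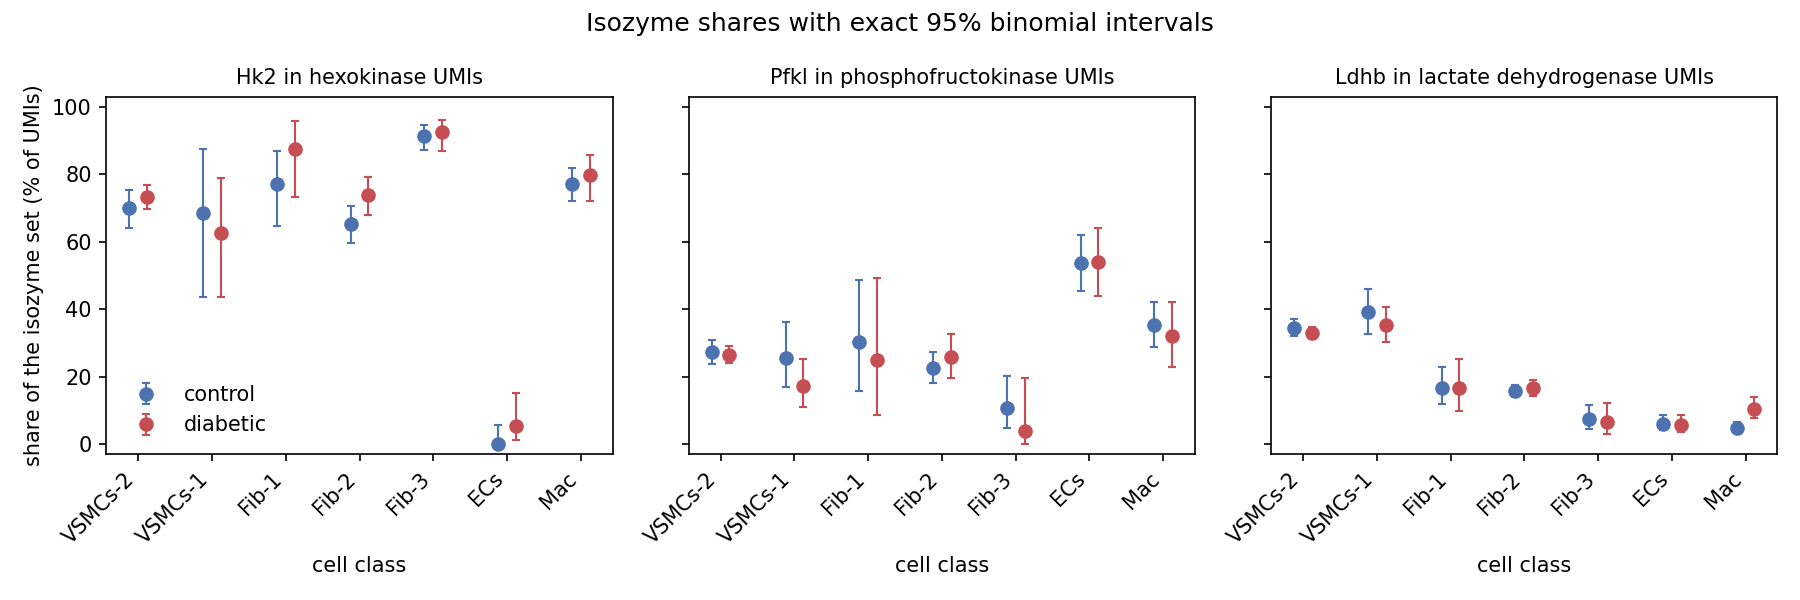
Share of isozyme UMIs held by Hk2 (of Hk1 and Hk2), Pfkl (of Pfkl, Pfkm and Pfkp) and Ldhb (of Ldha and Ldhb), in percent, by class and library (blue control, red diabetic), with exact 95% binomial intervals. Hk2 is near 0% in ECs and above 90% in Fib-3, and Ldhb is highest in smooth muscle. Pfkl is above 50% in ECs alone, with intervals that reach below 50%.

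Phosphofructokinase, the committed step of glycolysis, showed a second class pattern. Pfkl, the liver-type subunit, made up 53.8% (45.3 to 62.1) of phosphofructokinase UMIs in control ECs and 54.0% (43.7 to 64.0) in diabetic ECs. These intervals do not settle whether Pfkl held the larger part. In every other class the platelet-type subunit Pfkp held the largest share, from 55.6% in diabetic VSMCs-2 to 80.8% in diabetic Fib-3. The level of Pfkp was 42.1 and 41.0 CPM in ECs. It was 38.3 and 36.1 CPM in Fib-1, the lowest class, and 161 and 170 CPM in VSMCs-1, the highest. Pfkm held 17.0% and 17.9% in VSMCs-2 and only 4.35% and 3.09% in Mac. Pfkfb3, which makes the fructose 2,6-bisphosphate that activates phosphofructokinase, was 68.8 and 61.1 CPM in Mac and 50.3 and 49.2 CPM in ECs, beside 19.4 and 15.6 CPM in VSMCs-2. None of these 4 genes was called in any class, with ratios from 0.666 (Pfkp in Fib-3, 0.383 to 1.12) to 1.67 (Pfkm in VSMCs-1, 0.818 to 3.62).

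The other enzymes between glucose 6-phosphate and pyruvate, 8 genes, each reached 30 UMIs in all 7 classes. Gapdh (chr6:125161852-125166467) was highest in VSMCs-2 among the 7 compared classes, at 930 CPM in control cells and 1208 CPM in diabetic cells. Its ratio of 1.30 (1.24 to 1.36) there lay under the 1.5-fold rule although the interval excluded 1, as did those of VSMCs-1 (769 and 919 CPM; 1.2, 1.02 to 1.41), Mac (570 and 698 CPM; 1.22, 1.12 to 1.34) and Fib-2 (441 and 507 CPM; 1.15, 1.06 to 1.24). Fib-3 went the opposite way, with 608 and 509 CPM (0.837, 0.705 to 0.991). Gapdh, a common reference gene, kept its direction in these 4 classes under every scaling and cell filter tried, but in Fib-3 the ratio was 1.02 after thinning. Several of these enzymes have near-identical processed copies elsewhere in the genome, and how shared reads were counted is not given in the sources used here, so their counts are uncertain.

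Eno1, the enolase of most tissues (chr4:150236708-150248879), was called lower in Fib-3, at 176 CPM in control cells and 88.1 CPM in diabetic cells (0.502, 0.335 to 0.735). It was 188 and 227 CPM in Mac (1.21, 1.04 to 1.41), 160 and 127 CPM in Fib-2 (0.795, 0.685 to 0.920) and 210 and 226 CPM in VSMCs-2 (1.08, 0.975 to 1.19). The diabetic Fib-3 level was the lowest of the 7 classes, while control Fib-3 cells sat in the middle of the order.

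The 6 other enzymes of this stretch were called in no class. Aldoa, the muscle aldolase, was 794 and 710 CPM in VSMCs-2 and 636 and 467 CPM in ECs, where its ratio of 0.735 (0.648 to 0.832) was the lowest of its 7 ratios. Pkm, pyruvate kinase, was 420 and 324 CPM in ECs (0.773, 0.663 to 0.899) and 673 and 644 CPM in VSMCs-2 (0.956, 0.904 to 1.01). Gpi1, Tpi1, Pgk1 and Pgam1 had ratios between 0.774 (Tpi1 in Fib-3) and 1.14 (Pgk1 in VSMCs-1). Among the 7 compared classes all 6 were highest in a smooth muscle class in both libraries, and Gpi1, Tpi1 and Pkm were lowest in Fib-1 in both, for example Tpi1 with 337 and 311 CPM in VSMCs-2 beside 90.1 and 96.3 CPM in Fib-1.

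**Figure D3:**
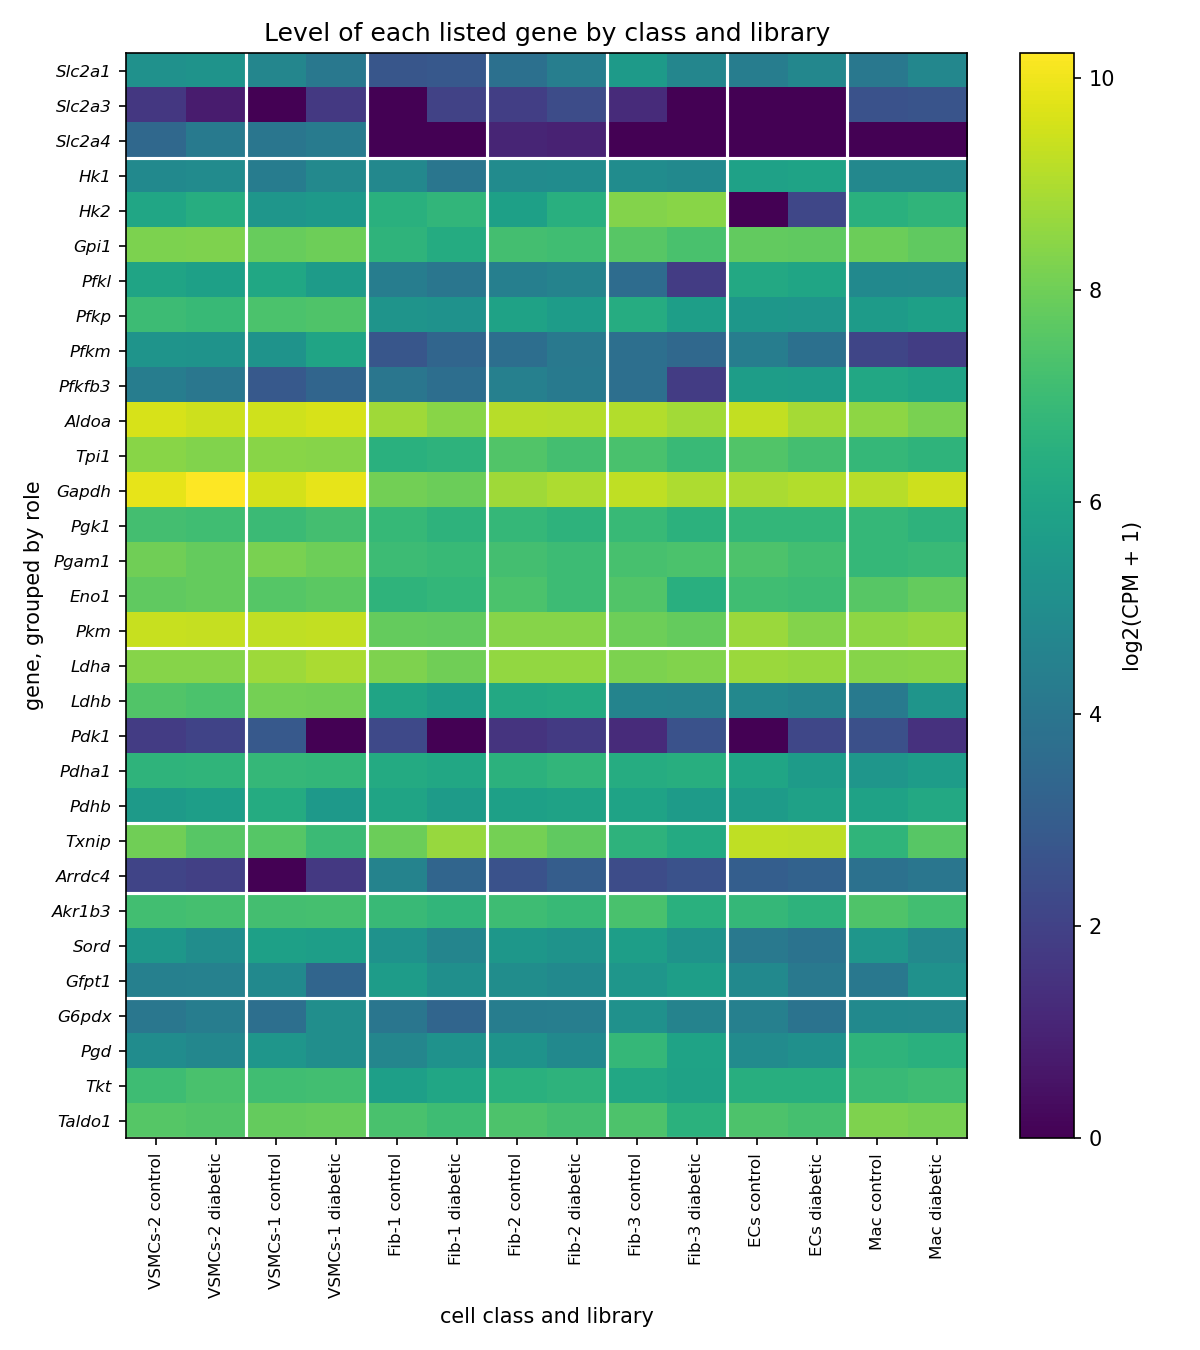
Level of each of the 31 genes (rows, grouped by role) in the 7 classes of each library (columns), as log2(CPM + 1). Paired control and diabetic columns look alike for most genes, while rows such as Slc2a4, Hk2, Ldhb and Txnip differ between classes.

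Promoter sequence was available for 28 of the 31 genes in the RefSeq table for GRCm38.p6, with windows of 300 bases from 250 before to 50 after each annotated start. Slc2a3, Slc2a4 and Akr1b3 had no entry. The pentamer ACGTG, the core bound by hypoxia-inducible factors and also part of the CACGTG E-box, was searched on both strands. It occurred for 15 of the 28 genes (53.6%) and for 21.8% of all 27025 genes in the table. A gene counted if any of its windows matched. The 28 genes had 41 windows, beside 32851 windows for all 27025 genes, so they had more windows per gene. The listed genes' windows were also richer in G and C (median 61.0% beside 52.7%), and a match is a description of letters, not of binding. The stretches that hold it in Slc2a1 and 4 glycolytic or lactate genes are shown as examples along the pathway, from uptake to lactate. Gapdh also matched but is not shown, because no match lay before a start with 15 bases on either side. The Pkm and Ldha stretches lie before an annotated start inside the gene, downstream of its outermost start. Capitals mark ACGTG, its reverse complement CACGT, or both where they overlap.

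Slc2a1, chr4:119108694-119108728, plus strand: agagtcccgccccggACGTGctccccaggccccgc

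Hk2, chr6:82774487-82774521, minus strand: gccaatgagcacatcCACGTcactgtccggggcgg

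Pgk1, chrX:106186954-106186988, plus strand: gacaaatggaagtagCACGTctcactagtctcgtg

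Pkm, chr9:59657137-59657171, plus strand: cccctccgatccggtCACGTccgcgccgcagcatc

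Ldha, chr7:46845755-46845789, plus strand: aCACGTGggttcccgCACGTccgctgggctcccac

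The 5 genes did not have 1 shared direction between the libraries. In Fib-2, Slc2a1 and Hk2 were called higher, while Pgk1 had a ratio of 0.860 (0.723 to 1.02), Pkm 0.988 (0.899 to 1.08) and Ldha 1.00 (0.916 to 1.09). Among 19 further genes of the hypoxia response, the collagen prolyl hydroxylases P4ha1 and P4ha2 were called lower. P4ha2 was 102 CPM in control cells and 45.4 CPM in diabetic Fib-2 cells (0.446, 0.353 to 0.560) and 132 and 62.1 CPM in ECs (0.471, 0.337 to 0.650). P4ha1 was 114 and 58.4 CPM in VSMCs-2 (0.513, 0.438 to 0.600) and 87.8 and 45.7 CPM in ECs (0.520, 0.349 to 0.762). Of the 18 hypoxia genes that reached 30 UMIs in VSMCs-2, 4 were called lower (beside 3.9% of all genes there), P4ha1, P4ha2, the vasodilator peptide gene Adm (54.6 and 33.4 CPM) and Ankrd37 (15.1 and 8.04 CPM), and 0 higher. In Mac 4 of 12 were called higher (beside 8.79% of all genes there), the transcription factor genes Arnt (19.5 and 39.8 CPM) and Bhlhe40 (44.7 and 85.9 CPM), with Ndrg1 (19.1 and 40.7 CPM) and Vhl (5.73 and 15 CPM), and 0 lower.

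At the end of glycolysis, Ldha turns pyruvate into lactate and Ldhb favours the reverse. Ldha was called in no class, with ratios from 0.849 in Fib-1 to 1.16 in VSMCs-1 and levels between 259 and 493 CPM. Ldhb (chr6:142490249-142507957) separated the cell types. VSMCs-1 stood highest with 272 CPM in control cells and 268 CPM in diabetic cells, above the intervals of every other compared class, VSMCs-2 followed with 176 and 162 CPM, and ECs held 26.5 and 23.4 CPM. Ldhb made up 39.1% and 35.2% of lactate dehydrogenase UMIs in VSMCs-1, beside 6.07% and 5.65% in ECs.

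Ldhb was called higher in diabetic Mac cells, with 45 UMIs in each library, equal to 17.2 CPM (12.5 to 23.0) in control and 39.8 CPM (29.1 to 53.3) in diabetic cells, a ratio of 2.32 (1.5 to 3.58). Its share of lactate dehydrogenase UMIs there was 4.89% (3.59 to 6.49) and 10.5% (7.77 to 13.8). Most of these UMIs lay in the Mac cells that also held T cell marker UMIs: 36 of 45 in control and 39 of 45 in diabetic cells. Ldhb was 312 CPM in control and 376 CPM in diabetic annotated T cells. In Mac cells without a T cell marker UMI 9 and 6 Ldhb UMIs remained (5.04 and 10.8 CPM), a ratio of 2.13 that was under the minimum for a call. Summed T cell markers in Mac were 320 and 616 CPM, and T-marker cells were 21.6% and 35.4% of the class; their part in the result was not tested further.

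Of the listed genes of pyruvate conversion in mitochondria, none was called. Pdha1 and Pdhb, subunits of pyruvate dehydrogenase, had ratios between 0.594 (Pdhb in VSMCs-1, 0.313 to 1.11) and 1.22 (Pdha1 in Mac, 0.869 to 1.71). Pdk1, the kinase that inhibits the complex, stayed under 30 UMIs in every class. Among 13 further genes of pyruvate entry and conversion, Pdk4 was called lower in VSMCs-2, at 22.6 and 14.9 CPM (0.657, 0.469 to 0.925). Pdk4 was 1 of 11 genes there that reached 30 UMIs, beside 3.9% of all genes called lower. Fib-2 had 2 of 9 called higher, beside 5.43% of all genes, Pdhx (7.70 and 14.2 CPM; 1.84, 1.06 to 3.20) and Pdk3 (3.85 and 9.46 CPM; 2.46, 1.18 to 5.26), which rested on 28 and 30 UMIs and on 14 and 20 UMIs.

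Txnip (chr3:96557957-96561857) is a strongly glucose-responsive gene and a negative regulator of glucose uptake and thioredoxin. Its promoter carries a carbohydrate response element, a pair of E-box-like CACNNG boxes spaced by 5 bases, through which MondoA and ChREBP act. Its 250 bases before the start, on the plus strand at chr3:96557707-96557956, are shown with this element in capitals. The element starts 85 bases before the annotated start, and this spaced pair, searched on both strands, occurred in 1.09% of 32851 promoter windows and in the window of no other listed gene.

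Txnip: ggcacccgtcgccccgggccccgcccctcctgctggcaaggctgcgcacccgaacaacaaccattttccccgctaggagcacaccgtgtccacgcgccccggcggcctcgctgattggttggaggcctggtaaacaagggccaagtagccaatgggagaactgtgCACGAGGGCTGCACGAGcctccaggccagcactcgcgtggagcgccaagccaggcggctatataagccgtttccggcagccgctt

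Arrdc4 (chr7:68736994-68749238), the arrestin gene most like Txnip in regulation and function, lies on the minus strand. Its 250 bases before the start, at chr7:68749239-68749488, hold a CACGTG E-box, shown in capitals. The E-box was found in 7.15% of windows, for 8.09% of all genes and for 4 of the 28 listed genes.

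Arrdc4: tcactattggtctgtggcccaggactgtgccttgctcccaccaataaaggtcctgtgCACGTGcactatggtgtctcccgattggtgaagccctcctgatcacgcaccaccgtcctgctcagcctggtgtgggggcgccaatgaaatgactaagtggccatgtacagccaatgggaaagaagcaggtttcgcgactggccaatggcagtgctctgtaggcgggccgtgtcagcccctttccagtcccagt

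Txnip did not move one way in the diabetic aorta. Among the 7 compared classes ECs held the highest level in both libraries, 615 CPM (569 to 663) in control and 590 CPM (540 to 644) in diabetic cells, and the ratio was 0.960 (0.854 to 1.08). Endothelial cells line the lumen, and no difference in their Txnip level was detectable. In smooth muscle the diabetic value was the smaller one: 259 CPM in control cells and 190 CPM in diabetic VSMCs-2 (0.735, 0.668 to 0.808), and 185 and 124 CPM in VSMCs-1 (0.668, 0.454 to 0.981). Fib-2 held 272 and 215 CPM (0.788, 0.704 to 0.882). These 3 intervals excluded 1 without reaching 1.5-fold, which VSMCs-1 passed narrowly under 4 alternatives (ratios 0.589 to 0.666). Fib-3 had 97.5 and 75.5 CPM (0.774, 0.487 to 1.2).

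Txnip was called higher in Mac and Fib-1. In Mac it was 102 CPM (90.2 to 115) in control and 192 CPM (167 to 219) in diabetic cells, a ratio of 1.88 (1.57 to 2.26). Cells with a Txnip UMI were 147 of 510 in control and 95 of 229 in diabetic Mac cells. After thinning to 1000 UMIs they were 8.65% (6.33 to 11.5) and 19.1% (13.9 to 25.3). After thinning to 2000 UMIs they were 13.9% (10.9 to 17.4) and 21.3% (15.4 to 28.3), with intervals that overlapped. The Txnip call in Mac was kept without the cells carrying T cell marker UMIs, where Txnip was 94.7 and 219 CPM (ratio 2.31). It was also kept without cells over 0.5% of UMIs in markers of another type (1.86) and without the single richest cell. The marker filter took out 57 of 510 control and 52 of 229 diabetic Mac cells, 0 and 1 of them for T cell markers. It did not screen Mac for dendritic cell markers, and cells with fewer marker UMIs of other types remained. In Mac as a whole smooth muscle markers were 299 and 878 CPM, and ribosomal protein genes made up 16.8% and 21.2% of UMIs, and their part in the result was not tested further. Fib-1 held 247 CPM (206 to 294) in control and 406 CPM (341 to 481) in diabetic cells, a ratio of 1.64 (1.28 to 2.11). In Fib-1, however, 1 diabetic cell held 15.6% of the Txnip UMIs, the ratio without the richest cell of each library was 1.45 and was no longer called, and the shares of cells with a UMI after thinning were 20.0% and 22.2%. Haemoglobin was 0.252% of control and 4.61% of diabetic Fib-1 UMIs, and without cells over 1% haemoglobin the ratio was 1.76.

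**Figure D4:**
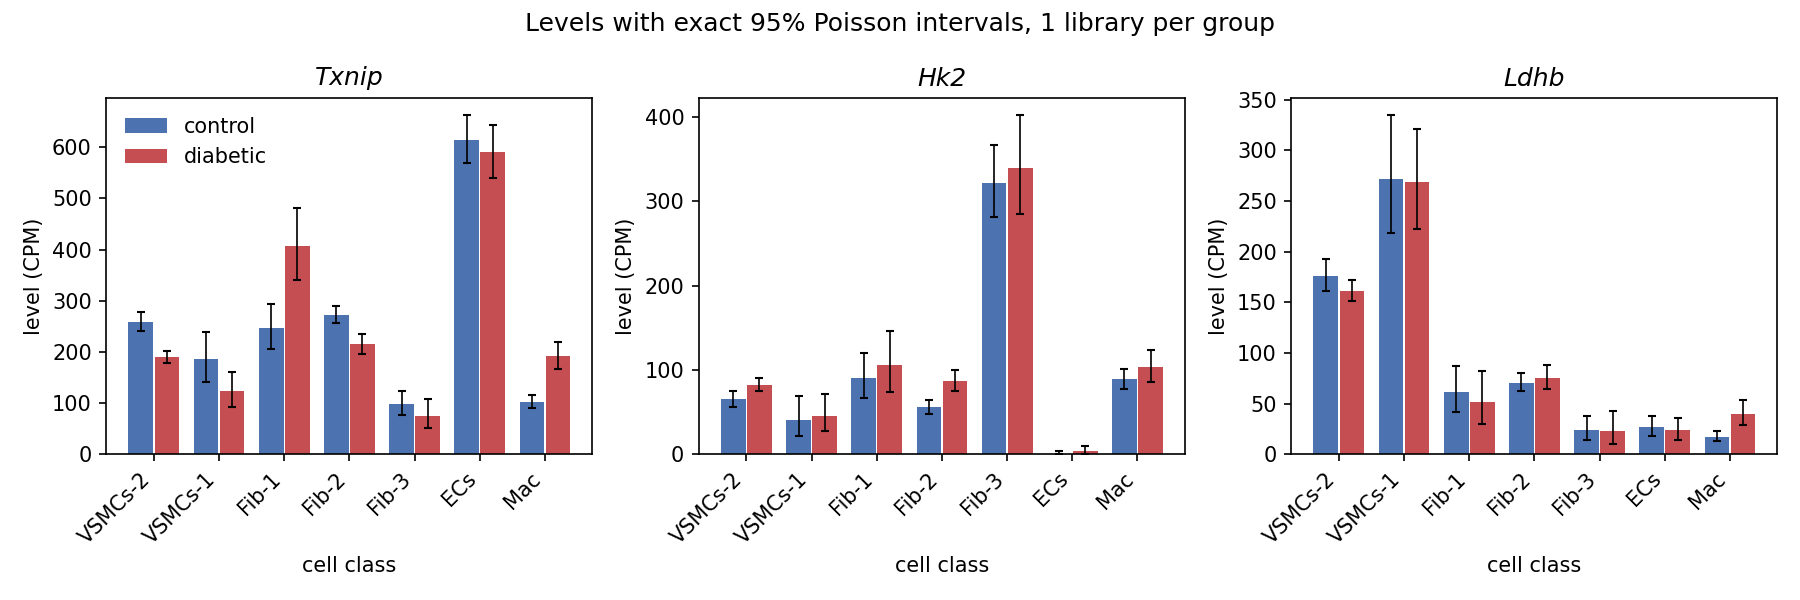
Levels of Txnip, Hk2 and Ldhb in CPM (vertical axes) by class in the control (blue) and diabetic (red) library, bars from 0 with exact 95% Poisson intervals. Txnip is highest in ECs, with 615 and 590 CPM, and its diabetic bar is the taller one in Fib-1 and Mac only; Hk2 stands out in Fib-3 and Ldhb in smooth muscle.

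Arrdc4 was a low-abundance gene in these libraries. It reached 30 UMIs in Fib-2, at 4.95 CPM in control cells and 7.09 CPM in diabetic cells (1.43, 0.672 to 3.01), and in Mac, at 13 and 15 CPM (1.16, 0.607 to 2.13). Among the 7 compared classes its highest values were 23.0 CPM in control Fib-1 and 15 CPM in diabetic Mac. VSMCs-2 held 3.23 and 2.80 CPM, ECs 7.32 and 8.20 CPM, Fib-3 4.18 and 5.04 CPM and VSMCs-1 0 and 2.29 CPM. In Fib-2 and in Mac, differences within the class's own interval were not detectable, and the other compared classes stayed under 30 UMIs. Among 10 further sensing factors and arrestins, 6 reached 30 UMIs in Mac, where Arrdc3, another arrestin, was called higher (7.26 and 23.0 CPM; 3.17, 1.69 to 6.06) and Arrdc1 lower (47.0 and 28.3 CPM; 0.602, 0.395 to 0.895). Of 8 genes in VSMCs-2, the energy sensor subunit Prkaa1 was called higher (11.1 and 17.8 CPM, ratio 1.60, 1.06 to 2.48). Arrdc1 was called lower there (11.5 and 6.47 CPM, ratio 0.563, 0.341 to 0.933). Of all genes, 8.79% were called higher and 5.66% lower in Mac, and 4.77% and 3.9% in VSMCs-2.

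The polyol route was lower in diabetic cells at its first step in Fib-3. Akr1b3, mouse aldose reductase (chr6:34303930-34317489), was 155 CPM in control cells and 90.7 CPM in diabetic Fib-3 cells (0.586, 0.391 to 0.860) and was called lower. Its other ratios ran from 0.805 in Mac (172 and 138 CPM, 0.666 to 0.967) to 1.04 in VSMCs-2 (142 and 148 CPM, 0.923 to 1.18), so no class held a called rise of this enzyme. Sord, which oxidises sorbitol to fructose, had ratios below 1 in all 6 classes where it reached 30 UMIs. They ran from 0.677 in Mac (40.5 and 27.4 CPM, 0.439 to 1.02) to 0.949 in VSMCs-1, and the interval excluded 1 in VSMCs-2 (42.4 and 31.5 CPM; 0.742, 0.585 to 0.945).

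Gfpt1 (chr6:87042846-87092207), the rate-limiting enzyme of the hexosamine pathway, was called higher in Mac, at 16.1 CPM (11.6 to 21.7) in control and 35.4 CPM (25.3 to 48.2) in diabetic cells, a ratio of 2.21 (1.39 to 3.48). The call rests on 42 and 40 UMIs, found in 41 of 510 control and 33 of 229 diabetic cells. Without the cells that carried T cell marker UMIs it was 14.6 and 32.3 CPM (ratio 2.22) and was still called. In the other classes Gfpt1 had ratios between 0.578 in ECs (28.4 and 16.4 CPM, 0.284 to 1.12) and 1.31 in Fib-3 (40.4 and 52.9 CPM, 0.709 to 2.38). Further down the same pathway 2 genes were called in Fib-3. Uap1, the last enzyme before UDP-GlcNAc, was 1430 CPM in control cells and 660 CPM in diabetic Fib-3 cells (0.461, 0.401 to 0.529), and Gnpnat1, which acetylates glucosamine 6-phosphate, was 176 and 80.6 CPM (0.459, 0.301 to 0.681). Both were lower, and they were the 2 called of 11 that reached 30 UMIs in Fib-3 on a list of 15 polyol, hexosamine and glyoxalase genes, where 6.58% of all genes were called lower. On that list Fib-1 had 1 of 10 called, Pgm3 (51.8 and 18.1 CPM; 0.349, 0.118 to 0.863), and Mac 1 of 12, the methylglyoxal-clearing enzyme Glo1 (62.7 and 38.9 CPM; 0.621, 0.435 to 0.871). Both were lower in the diabetic library, where 5.26% of all genes were called lower in Fib-1 and 5.66% in Mac, and Fib-2 had 0 of 14 called.

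In the pentose phosphate pathway 2 of the 4 listed genes were called, both lower and both in Fib-3, where 6.58% of all genes were called lower. Pgd, which makes the second NADPH of the oxidative branch (chr4:149149991-149166705), was 111 CPM in control cells and 60.4 CPM in diabetic Fib-3 cells (0.542, 0.328 to 0.865). Taldo1, transaldolase of the non-oxidative branch (chr7:141392160-141402976), was 164 CPM in control cells and 93.2 CPM in diabetic Fib-3 cells (0.567, 0.381 to 0.826). In the other classes where they reached 30 UMIs, Taldo1 and Pgd had a ratio above 1 in 1 class each, and whether Fib-3 differed from them was not tested. G6pdx, the entry enzyme, was 34.8 and 22.7 CPM there (0.651, 0.267 to 1.44), and Tkt, transketolase, 69.7 and 57.9 CPM (0.831, 0.484 to 1.39). All 4 pathway genes had ratios below 1 in Fib-3, where the median ratio of all genes was also below 1. Of 9 further genes of the pathway only H6pd, the enzyme of the endoplasmic reticulum, reached 30 UMIs there. It was called higher, at 16.7 and 55.4 CPM (3.31, 1.57 to 7.34), where 4.15% of all genes were called higher.

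In the other classes no pentose phosphate gene of the 31 was called. Pgd was 99.8 and 88.5 CPM in Mac (0.887, 0.697 to 1.12) and 36.9 and 27.9 CPM in Fib-2 (0.757, 0.547 to 1.04), and Tkt was 132 and 157 CPM in VSMCs-2 (1.19, 1.05 to 1.34). Taldo1 was highest in Mac among the 7 classes, at 302 and 279 CPM. The small monocyte class, with 9 and 19 cells, held far more, 1551 CPM (1184 to 1997) in control and 1183 CPM (959 to 1443) in diabetic cells, and the foam cell class held 543 and 737 CPM. Pgd was 569 and 342 CPM in monocytes and 177 and 267 CPM in foam cells.

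The Fib-3 class is small, with 117 control and 67 diabetic cells of similar depth (median 5882 and 5574 UMIs). Its 4 called genes rested on 80 to 126 control and 24 to 37 diabetic UMIs, and none was called at a 2-fold rule. After thinning to 1000 UMIs only Eno1 kept its call, and the other 3 had ratios between 0.437 and 0.514. All 4 were kept under the other scalings, with equal weight for every cell, and without haemoglobin-rich, deepest, richest or marker-mixed cells. The marker-mixed filter took out only 1 of 117 control and 2 of 67 diabetic cells, so it could hardly change these calls. Summed macrophage markers in Fib-3 were 340 CPM (244 UMIs) in control and 30.2 CPM (12 UMIs) in diabetic cells, beside 34803 CPM in control Mac. Fibroblast markers were 28521 and 22182 CPM, and erythroid markers 113 and 20487 CPM. Diabetic Fib-3 had 1 cell over 1% haemoglobin, without which the 4 calls were kept.

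**Figure D5:**
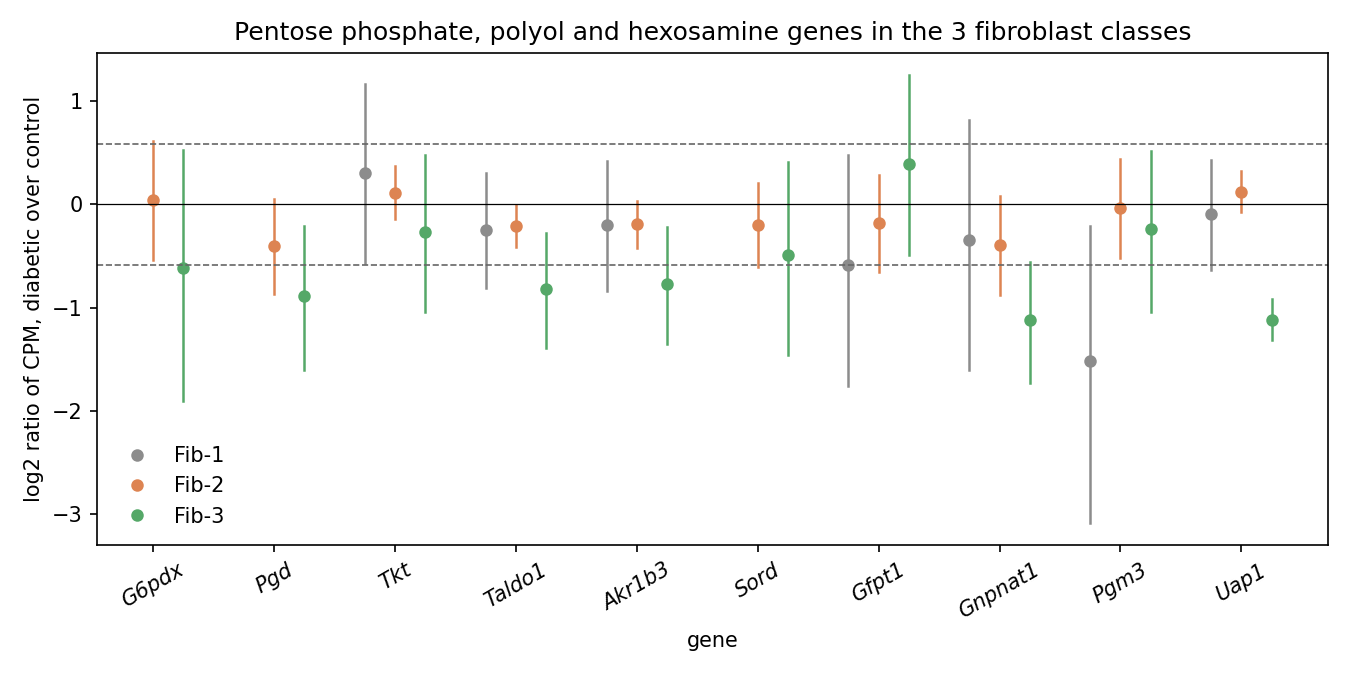
Log2 ratio of CPM, diabetic over control, with 95% counting intervals for pentose phosphate (G6pdx, Pgd, Tkt, Taldo1), polyol (Akr1b3, Sord) and hexosamine genes (Gfpt1, Gnpnat1, Pgm3, Uap1) in Fib-1 (grey), Fib-2 (orange) and Fib-3 (green), where a gene reached 30 UMIs. The dashed lines mark 1.5-fold, and the green points of Pgd, Taldo1, Akr1b3, Gnpnat1 and Uap1 lie under the lower one with intervals below 0, as does the grey point of Pgm3, while no orange point does.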

How the data were processed

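Aortic cells were profiled by droplet 3' sequencing (10x v2), as the labels' protocols state. The authors deposited unnormalized UMI counts for every barcode. The submitters' processing notes name Cell Ranger 3.1.0, the mm10 build and Partek, whose version, like the annotation release, is not given in the sources used here. Cell classes are those the authors deposited, with 1 label per barcode, and only classed barcodes entered the comparisons. Every column of sample values was used, so 0 stayed unused. A 3' count is 1 captured transcript end, so levels are compared for 1 gene between classes, and between genes only as shares of an isozyme set.

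UMIs were summed per class and library with Python 3.11.15 (numpy 2.4.6, scipy 1.17.1, pandas 2.3.3) and scaled to CPM. Class totals ran from 323757 to 5718684 UMIs. Levels have exact Poisson, shares exact Clopper-Pearson, and ratios exact conditional binomial 95% intervals. The ratio intervals were tested only on Poisson counts simulated under the model they assume, so differences between cells were not covered. No fold is given where both libraries held 3 UMIs or fewer. Alternatives were trimmed mean scaling (edgeR 4.0.16 in R 4.3.3), scaling without mitochondrial, ribosomal protein and haemoglobin genes, equal cell weights, equal class weights, thinning to 1000 UMIs, other count minimums, a 2-fold rule, and removal of the richest cell of a gene, of cells over 1% haemoglobin or of the 5% deepest cells. Doublets were not called, and the last stands in for their removal. After the data were seen, removal of cells over 0.5% of UMIs in markers of another type, and of Mac cells with a T cell marker UMI, was added. Named in full were genes in the classes where they were called or highest, with Txnip, Arrdc4 and the transporters in every class, and up to 4 called genes per further list and class. The 31 genes and all lists were chosen with earlier results of these data known. Positions and promoters are from RefSeq on GRCm38.p6, the assembly that mm10 names.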

Additional observations from a re-analysis of the deposited data

Results flagged for a closer look

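Gapdh, Eno1 and Txnip had ratios whose counting intervals lay above 1 in some classes and below 1 in others, and the difference between classes was not tested for any of them. For Gapdh the ratios were 1.30 in VSMCs-2, 1.15 in Fib-2, 1.22 in Mac and 1.2 in VSMCs-1, beside 0.837 in Fib-3. Eno1 had 1.21 in Mac, beside 0.795 in Fib-2 and 0.502 in Fib-3. Txnip had 1.64 in Fib-1 and 1.88 in Mac, beside 0.788 in Fib-2, 0.735 in VSMCs-2 and 0.668 in VSMCs-1.

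Barcodes to which the authors gave no class also held the 31 genes. Those with over 50% haemoglobin UMIs held 143 CPM summed over the list in 29 control barcodes and 83.2 CPM in 487 diabetic barcodes. The remaining unclassed barcodes held 4433 CPM in 1126 control and 4124 CPM in 447 diabetic barcodes, near the 4281 and 4793 CPM of classed cells.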

How the results depend on the processing

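No result with a call reversed. Of 11 called values, trimmed mean scaling kept 10, scaling without mitochondrial, ribosomal protein and haemoglobin genes 11, equal cell weights 11, removal of the richest cell 9, of haemoglobin-rich cells 10, of the 5% deepest cells 11 and of marker-mixed cells 10. Thinning to 1000 UMIs, which discards most of the counts, kept 3, and the T cell marker filter kept 2 of the 3 in Mac. Trimmed mean scaling moved the log2 ratios in Mac by -0.12.

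Counts of listed genes called higher went to 0 in VSMCs-2 with thinning or the 2-fold rule, to 0 in Fib-1 with thinning, the 2-fold rule or without the richest cell, and to 0 in Fib-2 with the 2-fold rule. In Fib-2 the count was 1 with trimmed mean scaling, thinning, a minimum of 100 UMIs, or without the richest, haemoglobin-rich or marker-mixed cells. Mac had 1 higher with thinning or a minimum of 100 UMIs, and VSMCs-1 and Fib-3 had 1 higher with thinning. Counts called lower in Fib-3 were 1 with thinning and 0 with the 2-fold rule. VSMCs-1 had 1 lower with equal cell weights or without haemoglobin-rich, deepest or marker-mixed cells, ECs 2 with equal cell weights and 1 with thinning, and Mac 1 with trimmed mean scaling or without the richest cell. The median log2 ratio in VSMCs-1 was 0.15 with equal cell weights and 0.13 with thinning. Pooled over all classed cells, 4 were higher on scaling without mitochondrial, ribosomal protein and haemoglobin genes, 1 with the 2-fold rule and 0 with equal class weights (median log2 ratio -0.083), and 2 were lower with equal cell weights and 1 with thinning. The cause of these changes was not tested, apart from the fewer counts that thinning and the higher minimum leave. No paired analysis was possible because each group is 1 library, and for the same reason no library could be left out. At this depth Slc2a3 and Pdk1 reached 30 UMIs in 0 classes, Slc2a4 in 1 and Arrdc4 in 2.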

Other observations

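Bpgm, which makes the 2,3-bisphosphoglycerate of red cells, was the gene of the further glycolysis list with calls in 3 classes. Of all genes, 4.77% were called higher in VSMCs-2, 3.45% in Fib-1 and 5.43% in Fib-2. Bpgm is named from that list because it was called, each time higher in the diabetic library. It was 17.6 CPM in control cells and 38.5 CPM in diabetic VSMCs-2 cells (2.19, 1.60 to 3.04), 9.59 and 87.3 CPM in Fib-1 (9.11, 3.49 to 30.1) and 23.1 and 35.5 CPM in Fib-2 (1.53, 1.11 to 2.12). Haemoglobin in the same classes was 0.0116% and 1.15% of UMIs in VSMCs-2, 0.252% and 4.61% in Fib-1 and 0.0138% and 0.796% in Fib-2, in control and diabetic cells, and its part in the Bpgm values was not tested. In the haemoglobin-rich barcodes Bpgm was 1357 CPM in control cells and 1550 CPM in diabetic ones, while Gapdh was 4.76 and 3.38 CPM and Slc2a1 and Slc2a4 were at 0.

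Of the 5 glycogen genes that reached 30 UMIs in Fib-3, 2 were called lower, beside 6.58% of all genes there. Ugp2, which makes UDP-glucose, was 394 CPM in control cells and 244 CPM in diabetic cells (0.619, 0.487 to 0.783), and Pygl, liver glycogen phosphorylase, was 43.2 and 10.1 CPM (0.233, 0.0598 to 0.659). In ECs Ugp2 had the opposite call, at 34.8 and 59.7 CPM (1.72, 1.11 to 2.69), and whether the classes differed was not tested. Hk3, the leukocyte hexokinase, was 28.7 CPM in control cells and 15.9 CPM in diabetic Mac cells (0.556, 0.313 to 0.939). Pgls, of the oxidative pentose phosphate branch, was 13.4 and 28.3 CPM there (2.12, 1.27 to 3.52). These genes are named because they were called. Of all genes, 5.66% were called lower and 8.79% higher in Mac, and 4.18% higher in ECs.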
